A study of Mus musculus with 8 samples.

Results

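The genes described here are the MAP kinase phosphatases DUSP1, DUSP2, DUSP4, DUSP5, DUSP6, DUSP7, DUSP8, DUSP10, DUSP14 and DUSP16. They were taken by gene symbol from the deposited table, in which 10 of 10 had 1 entry each among 58304 genes kept. The study compared wounds treated with rFGF4, a recombinant fibroblast growth factor, with wounds treated with PBS as control. The labels give C57BL/6 mice aged 6 to 8 weeks, a time of 6 days, and RNA from the 2 mm round the wound, with 4 libraries per group. The table does not match that description, since all 58304 gene identifiers are human Ensembl identifiers and 0 are mouse identifiers. Groups are therefore named by their labels, PBS and rFGF4, and columns were matched to them by name alone. No value is attributed to mouse skin, and the sources used here do not say which human cells were measured. The labels do not say how many animals or cultures the libraries stand for, so the p-values measure the spread between these libraries, which may be technical.

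MAP kinases such as ERK, JNK and p38 are switched on when a threonine and a tyrosine in their activation loop are both phosphorylated. Dual-specificity MAP kinase phosphatases remove both phosphates and so switch the kinase off. Growth factor receptors, FGF receptors among them, activate ERK through RAS, RAF and MEK, and several of these phosphatases are made in response to ERK activity and act as its negative feedback. By textbook grouping, DUSP1, DUSP2, DUSP4 and DUSP5 are nuclear and inducible, DUSP6 and DUSP7 are cytoplasmic and prefer ERK, and DUSP8, DUSP10 and DUSP16 prefer JNK and p38. DUSP14 is a small enzyme that lacks the MAP kinase binding domain of the others.

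The libraries held 62044121 to 73680756 counts. KRT14 and KRT5, keratins of basal keratinocytes, and the other members of an 8-gene basal keratinocyte list were all at a mean of at least 1 FPKM. FPKM is fragments per kilobase of transcript length, relative to all fragments mapped. The summed FPKM of that list was 2330 to 2660 in the PBS libraries and 2140 to 2250 in the rFGF4 libraries, with KRT15 and LAMB3 called as lower. None of 6 fibroblast, 3 skeletal muscle, 3 erythrocyte and 3 melanocyte markers reached a mean of 1 FPKM, and the fibroblast list summed to 0.776 to 0.864 FPKM in PBS and 0.411 to 0.512 FPKM in rFGF4. The endothelial list (4 genes, 1 at that level) summed to 1.85 to 3.05 FPKM in PBS and 3.06 to 4.08 FPKM in rFGF4. The leukocyte list (5 genes) summed to 7.19 to 8.66 and 7.90 to 10.6 FPKM, nearly all of it CD68, a lysosomal protein. The leukocyte markers PTPRC and CD3E were at 0 counts in 4 and 6 of the libraries, and MYH2 of muscle in all 8. The part of these marker differences in the results below was not tested. FGF4 itself had 0 counts in all 8 libraries.

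In the libraries labelled rFGF4, DUSP6, DUSP4, DUSP5 and DUSP7 rose and DUSP10 fell. The 4 that rose all act on ERK. DUSP1 and, outside the 10 genes, DUSP9 and DUSP3 act on ERK too and did not pass the test. The deposited annotation also gives negative regulation of the ERK cascade for DUSP10, which fell. Acting on ERK is thus not particular to the members that rose. The call of DUSP10, of the JNK and p38 group, was near the threshold and was lost in 9 of 17 alternative settings. DUSP6 rose 4.94-fold, DUSP4 3.44-fold, DUSP5 1.87-fold and DUSP7 1.44-fold, while DUSP10 fell to 0.677 of its PBS level. In bulk RNA, a change in the share of cells that express a gene cannot be told apart from a change in RNA per cell. DUSP1, DUSP14 and DUSP16 did not pass the test, and DUSP2 and DUSP8 were too low to enter it. Tests were made on the deposited counts with edgeR over all genes with a mean of at least 1 FPKM, at a threshold of 0.05 on the Benjamini-Hochberg adjusted p. Of the 8 members that passed this filter on low values, 4 were higher and 1 was lower. Over all 11536 tested genes, 10% were called, 5.49% as higher and 4.54% as lower. The median log2 fold change of the 8 members was 0.27, against 0.00 over all tested genes. DUSP4 averaged under 1 FPKM in PBS and passed the filter through its rFGF4 level, so it had to differ in order to be tested. It is among the 4 called as higher and in the median of the 8. With the filter at a mean of 0.1 FPKM, which DUSP4 also reached in PBS, it rose by 1.79 (SE 0.12, edgeR adjusted p = 0.000294).

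**Figure D1:**
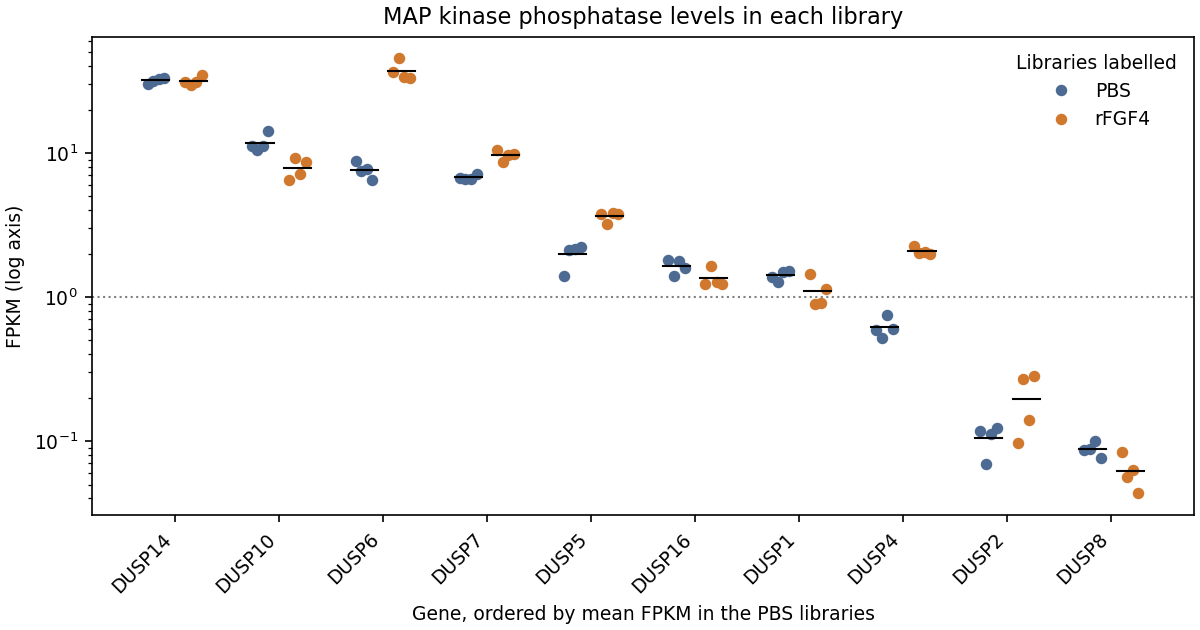
FPKM of the 10 phosphatase genes in each library on a log axis, with PBS libraries in blue, rFGF4 libraries in orange, black lines at the group mean and a dotted line at 1 FPKM. DUSP6, DUSP4, DUSP5 and DUSP7 have 4 orange points above all 4 blue points, DUSP10 has them below, and the groups of the other genes overlap.

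Levels can be compared between genes on the FPKM scale, which is per transcript length. In the PBS libraries DUSP14 was the highest at 31.9 ± 1.31 FPKM (mean ± SD, n = 4), followed by DUSP10 at 11.8 ± 1.67, DUSP6 at 7.62 ± 0.97 and DUSP7 at 6.79 ± 0.28 FPKM. DUSP6 and DUSP7 overlapped in PBS, as did DUSP5 (1.98 ± 0.385 FPKM), DUSP16 (1.65 ± 0.19 FPKM) and DUSP1 (1.41 ± 0.109 FPKM) in turn. DUSP4 stood at 0.616 ± 0.0945 FPKM, and DUSP2 and DUSP8 were the lowest. In the rFGF4 libraries DUSP6, at 37.1 ± 5.67 FPKM, took the top place, with a range that overlapped that of DUSP14 (31.7 ± 2.13 FPKM). DUSP7 (9.63 ± 0.728 FPKM) and DUSP10 (7.86 ± 1.24 FPKM) came next, with overlapping ranges. DUSP4 moved from rank 8 to rank 6, above DUSP16 and DUSP1.

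DUSP6 is the cytoplasmic phosphatase that binds and inactivates ERK. In the table it lies on chromosome 12 from 89347235 to 89352501 on the minus strand (no genome build is named), with identifier ENSG00000139318. Its level in PBS replicates 1 to 4 was 8.84, 7.47, 7.69 and 6.47 FPKM, and in rFGF4 replicates 1 to 4 it was 36.7, 45.3, 33.6 and 32.9 FPKM. The lowest rFGF4 library was above the highest PBS library by a wide margin, and rFGF4 replicate 2 was the highest of its group. DUSP6 rose by 2.31 on the log2 scale (SE 0.12, edgeR adjusted p = 0.000115). A gene model on the opposite strand, AC024909, overlaps the start of DUSP6. It stood at 1.12 to 2.00 FPKM in PBS and 3.30 to 5.93 FPKM in rFGF4, was highest in rFGF4 replicate 2 as well, and rose by 1.71 on the log2 scale (SE 0.25, edgeR adjusted p = 0.00492). No source says whether reads were counted by strand, so those of DUSP6 and AC024909 cannot be told apart where they overlap. AC024909 was chosen for its position after the values were seen, and its highest count was 1147 against 1940 to 14953 for DUSP6.

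DUSP7 is the close relative of DUSP6 in the cytoplasm (ENSG00000164086, chromosome 3 from 52048919 to 52056571, minus strand). It stood at 6.75, 6.63, 6.57 and 7.20 FPKM in the PBS libraries and at 10.4, 8.65, 9.67 and 9.77 FPKM in the rFGF4 libraries. The groups did not overlap, and the PBS spread was among the smallest of the family (coefficient of variation 4.16%). DUSP7 rose by 0.53 on the log2 scale (SE 0.08, edgeR adjusted p = 0.00492). DUSP9, the remaining cytoplasmic ERK phosphatase, belongs to a list of other phosphatases that act on MAP kinases. It stood at 5.82 ± 0.405 FPKM in PBS and 5.53 ± 0.457 FPKM in rFGF4 (SD, n = 4), changing by −0.05 on the log2 scale (SE 0.10, edgeR adjusted p = 0.817).

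DUSP4 is a nuclear phosphatase for ERK and JNK and a known ERK target gene (ENSG00000120875, chromosome 8 from 29333064 to 29350684, minus strand). It stood at 0.592, 0.522, 0.747 and 0.601 FPKM in the PBS libraries and at 2.26, 2.04, 2.05 and 2.00 FPKM in the rFGF4 libraries. The rFGF4 values lay close together (coefficient of variation 5.61%), with every one above the PBS range. The log2 fold change was 1.78 (SE 0.12, edgeR adjusted p = 0.000215). With limma on log2(FPKM + 1), a scale that understates the change of low genes, it was 0.93 (SE 0.06, adjusted p = 0.000181).

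DUSP5 is a nuclear phosphatase specific to ERK (ENSG00000138166, chromosome 10 from 110497907 to 110511533, plus strand). Its PBS values were 1.41, 2.13, 2.17 and 2.22 FPKM, with replicate 1 below the others. Its rFGF4 values were 3.75, 3.20, 3.82 and 3.79 FPKM, with replicate 2 below the others and still above all PBS libraries. DUSP5 rose by 0.90 (SE 0.16, edgeR adjusted p = 0.0115). Its processed copies DUSP5P1 and DUSP5P2 had at most 9 and 0 counts in any library, against 313 to 833 for DUSP5.

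DUSP10, which prefers p38 and JNK, was the only member called as lower (ENSG00000143507, chromosome 1 from 221701424 to 221742089, minus strand). It stood at 11.2, 10.5, 11.2 and 14.3 FPKM in PBS and at 6.53, 9.17, 7.13 and 8.61 FPKM in rFGF4. The groups did not overlap, with PBS replicate 4 the highest and rFGF4 replicate 1 the lowest. DUSP10 changed by −0.56 on the log2 scale (SE 0.14, edgeR adjusted p = 0.0422). This call is near the threshold. It was lost without any 1 of PBS replicates 1 to 4 or rFGF4 replicates 1 and 3, with adjusted p from 0.0721 to 0.111, and with 3 looser filters on low values (0.0567 to 0.0853). Without PBS replicate 4 the log2 fold change was −0.45.

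Among the 8 tested members, 4 had rFGF4 values all above the PBS values in FPKM and 1 had them all below. DUSP4 is 1 of the 4, and it passed the filter only through its rFGF4 level. Over all tested genes, 8.76% had no overlap with rFGF4 higher and 10.4% had none with rFGF4 lower.

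**Figure D2:**
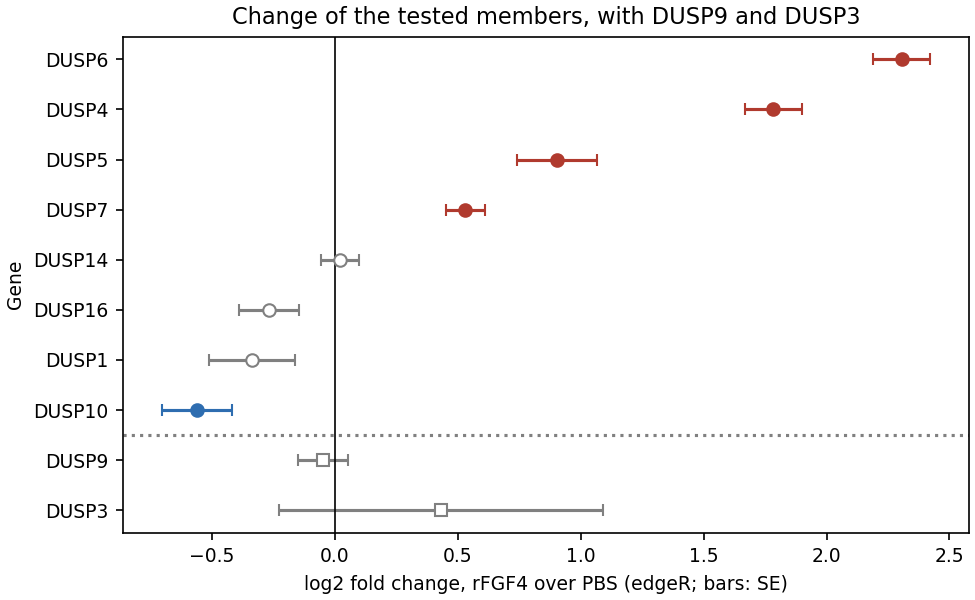
Log2 fold change of rFGF4 over PBS by edgeR, with bars of 1 SE, for the 8 tested phosphatases (circles) and for DUSP9 and DUSP3 (squares); red and blue mark genes past the threshold as higher and lower, and open symbols those not past it. DUSP6 at 2.31 and DUSP4 at 1.78 stand apart from DUSP5 and DUSP7, DUSP10 lies at −0.56, and DUSP3 has the widest bar (SE 0.66).

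The members that did not pass include the textbook immediate early phosphatase. DUSP1, a nuclear enzyme made within minutes of many stimuli and active on p38 and JNK as well as ERK (ENSG00000120129, chromosome 5 from 172768096 to 172771195, minus strand), stood at 1.37, 1.27, 1.49 and 1.51 FPKM in PBS. In rFGF4 it stood at 1.44, 0.894, 0.913 and 1.14 FPKM, so replicate 1 lay within the PBS range and the other 3 below it. The log2 fold change was −0.34 (SE 0.18, edgeR adjusted p = 0.279). DUSP16, a JNK phosphatase (ENSG00000111266, chromosome 12 from 12474210 to 12562383, minus strand), stood at 1.80, 1.40, 1.78 and 1.60 FPKM in PBS and at 1.23, 1.65, 1.28 and 1.23 FPKM in rFGF4. Only rFGF4 replicate 2 reached the PBS range, and the log2 fold change was −0.27 (SE 0.12, edgeR adjusted p = 0.21).

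DUSP14 carried the highest level in PBS and varied least between those libraries (coefficient of variation 4.10%). It is on chromosome 17 from 37489891 to 37513498, plus strand (ENSG00000276023). It stood at 30.2, 31.5, 32.4 and 33.3 FPKM in PBS and at 31.1, 29.9, 31.1 and 34.8 FPKM in rFGF4, with full overlap. The log2 fold change was 0.02 (SE 0.08, edgeR adjusted p = 0.911) and took the other sign in limma on FPKM, and without PBS replicate 1 or rFGF4 replicate 4.

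DUSP2 and DUSP8 were the lowest members, with at most 48 counts in every library. DUSP2, a nuclear phosphatase best known from activated leukocytes (ENSG00000158050, chromosome 2 from 96143169 to 96145440, minus strand), had 11 to 20 counts in PBS and 18 to 48 counts in rFGF4. These are 0.118, 0.0698, 0.112 and 0.124 FPKM in PBS and 0.0977, 0.269, 0.139 and 0.283 FPKM in rFGF4, with rFGF4 replicate 1 inside the PBS range. In an edgeR fit of genes with a mean of at least 0.1 FPKM, where 6.5% of genes were called, DUSP2 had 0.93 on the log2 scale (SE 0.40, adjusted p = 0.232). DUSP8, a JNK and p38 phosphatase best known from brain and heart (ENSG00000184545, chromosome 11 from 1554051 to 1572271, minus strand), had 19 to 39 counts and 0.0434 to 0.101 FPKM. With no filter on low values its log2 fold change was −0.48 (SE 0.30, edgeR adjusted p = 0.433). Its copy DUSP8P5 had 25 to 112 counts, so reads of DUSP8 and its copies may be divided between them.

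Whether 2 phosphatases changed by different amounts was tested within each library, as the log2 ratio of their FPKM, for 3 pairs. The ratio does not depend on how libraries are scaled. DUSP6 to DUSP7 had ratios of 0.39, 0.17, 0.23 and −0.15 in PBS and 1.82, 2.39, 1.80 and 1.75 in rFGF4 on the log2 scale. The means were 0.16 ± 0.23 and 1.94 ± 0.30 (SD, n = 4), so DUSP6 went from 1.12 to 3.83 times the level of DUSP7. The difference of 1.78 (SE 0.19) had an exact permutation p of 0.0286, the smallest that 4 against 4 libraries can give (two-sided, adjusted p = 0.0429 over 3 ratios). DUSP4 to DUSP5 rose from −1.67 ± 0.35 to −0.80 ± 0.13, a difference of 0.87 (SE 0.19, exact permutation p = 0.0286, adjusted p = 0.0429). DUSP4 thus rose more than DUSP5 but remained below it, at 0.574 of its level. With 1 added to each FPKM, the difference for DUSP4 to DUSP5 was 0.29, with an exact permutation p of 0.0857. DUSP10 to DUSP16 had 2.84 ± 0.25 in PBS and 2.54 ± 0.18 in rFGF4, a difference of −0.30 (SE 0.15) that did not pass (exact permutation p = 0.0857, adjusted p = 0.0857). With 1 added to each FPKM it was −0.36, with an exact permutation p of 0.0286.

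**Figure D3:**
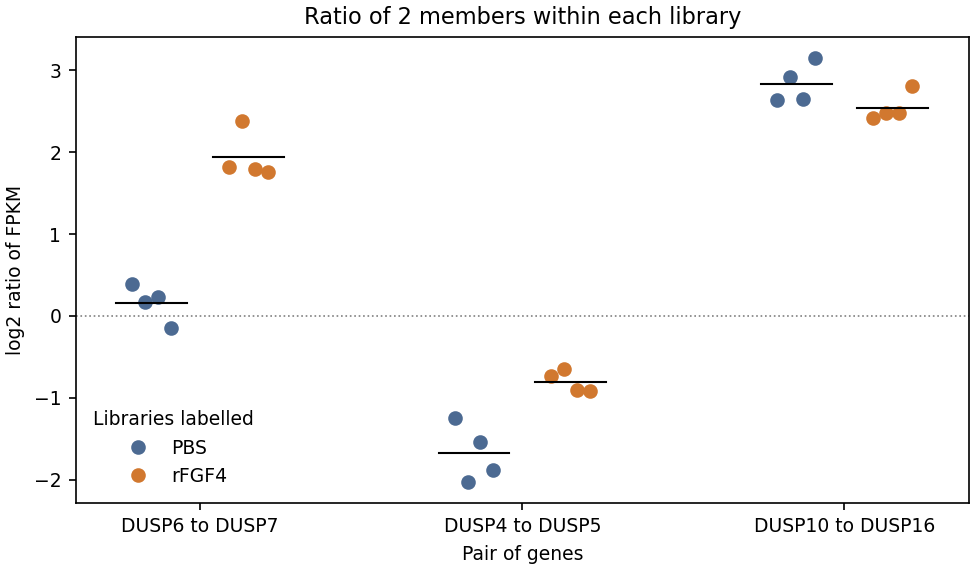
Log2 ratio of FPKM between 2 phosphatases within each library, PBS in blue and rFGF4 in orange, with black lines at the group mean. For DUSP6 to DUSP7 and DUSP4 to DUSP5 every rFGF4 point lies above every PBS point, while for DUSP10 to DUSP16 the groups overlap.

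The make-up of the family changed accordingly. The 10 members summed to 63.9 ± 2.54 FPKM in PBS and 94.7 ± 4.70 FPKM in rFGF4 (SD, n = 4). DUSP6 was 14.2, 12.1, 12 and 9.61% of that sum in PBS and 39.2, 44.8, 37.4 and 34.8% in rFGF4. DUSP14 went from 49.9 ± 1.19% to 33.6 ± 3.04% without a called change of its own, and DUSP10 from 18.4 ± 1.88% to 8.28 ± 1.02%. DUSP7 kept about the same share, 10.6 ± 0.266% and 10.2 ± 1.14%, because its rise was close to that of the sum. DUSP4 and DUSP5 together stayed small, with DUSP4 at 0.963 ± 0.139% and 2.21 ± 0.177% and DUSP5 at 3.09 ± 0.566% and 3.86 ± 0.479%. Shares were given as a description, with no test.

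**Figure D4:**
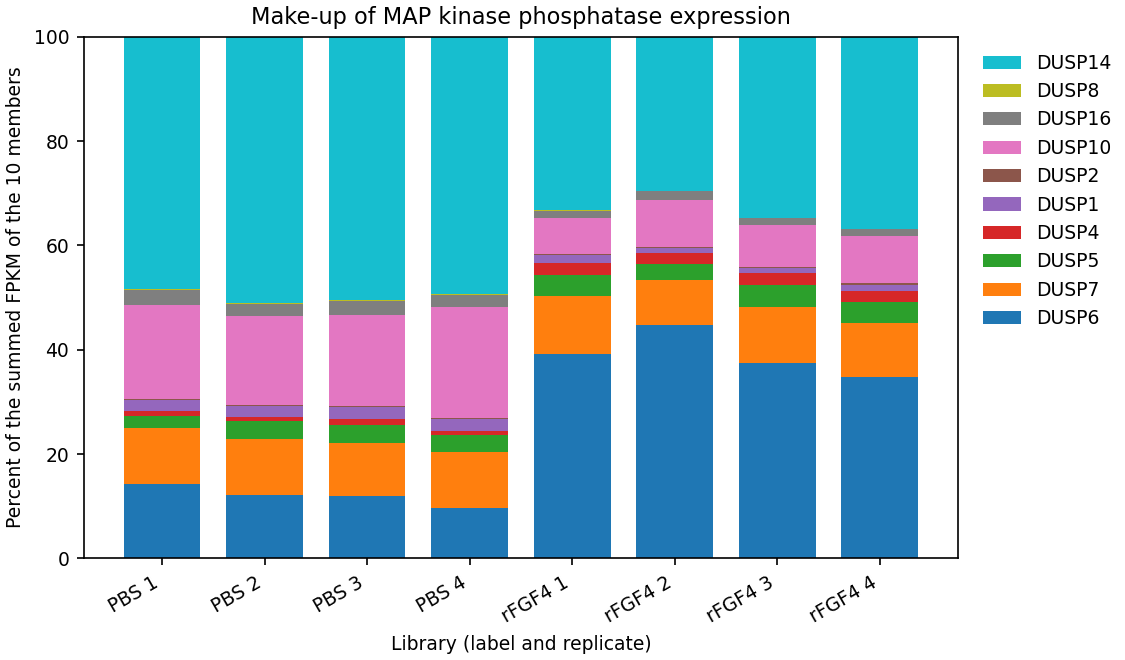
Share of each phosphatase in the summed FPKM of the 10 members, in percent, as stacked bars for the 8 libraries. DUSP6 (bottom, dark blue) takes 9.61 to 14.2% in the PBS libraries and 34.8 to 44.8% in the rFGF4 libraries.

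The libraries of 1 group also differed among themselves. rFGF4 replicate 2 had the highest DUSP6, DUSP10 and DUSP16 of its group and the lowest DUSP1, DUSP5, DUSP7 and DUSP14 in FPKM. DUSP2 varied most, with coefficients of variation of 23.3% in PBS and 46.9% in rFGF4, and it was also among the lowest in counts. For DUSP6 the coefficients were 12.7% and 15.3%.

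The table's own annotation places all 10 members under MAP kinase tyrosine/serine/threonine phosphatase activity and under inactivation of MAPK activity. It gives the nucleus for 7 members, the nucleoplasm for 6, DUSP6 and DUSP7 among these, and the cytosol for 5. The negative regulation of the ERK cascade is given for DUSP1, DUSP4, DUSP6 and DUSP10. The genes span from 2.27 kb (DUSP2), 3.10 kb (DUSP1) and 5.27 kb (DUSP6) to 88.2 kb (DUSP16). They lie on 9 chromosomes, with DUSP6 and DUSP16 both on chromosome 12. Of the 20 nearest tested genes on either side of the members, not overlapping them, 1 was called, where 10% of all tested genes were. It was CREBL2 beside DUSP16 (log2 fold change −0.36, SE 0.10, edgeR adjusted p = 0.0489). AC024909, which overlaps DUSP6 and was called as higher, is not among the 20. POC1B and KITLG beside DUSP6, at 67.2 and 767 kb, had log2 fold changes of 0.09 (SE 0.10) and −0.18 (SE 0.14) and did not pass.

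The kinases that the phosphatases act on were looked at next. Of the 10 MAP kinases, 9 were tested and 0 passed with edgeR, where 10% of all tested genes were called. With 9 genes, 0 is near that share. At an unadjusted p under 0.05 there were 2. DESeq2 called 1 of the 9, where it called 1828 of all 11536 tested genes. MAPK3, an ERK gene, stood at 12.4 ± 0.645 FPKM in PBS and 11.5 ± 0.871 FPKM in rFGF4 (SD, n = 4), with a log2 fold change of −0.08 (SE 0.08). MAPK8, which encodes JNK1, had −0.07 (SE 0.07) and MAPK14, which encodes p38 alpha, had 0.07 (SE 0.43). MAPK14 was at 3.19 to 3.83 FPKM in 3 libraries and at 7.63 to 9.79 FPKM in the other 5, in both groups.

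The 6 lists of pathway genes other than ERK targets, the MAP kinases among them, had 42 of 57 genes tested. With edgeR 0 of the 42 passed, where 10% of all tested genes were called. At an unadjusted p under 0.05 there were 10, and the share of all tested genes at that level is not given here. Limma called 0 of the 42, where it called 1091 to 1143 of all tested genes. DESeq2 called 4 of the 42, where it called 1828 of all 11536 tested genes. The 4, named after their values were seen, were MAPK13, MAP2K3, RPS6KA4 and PPM1B. The 0 holds for genes with a mean of at least 1 FPKM. With the filter at a mean of 0.1 FPKM, where edgeR called 6.5% of all genes tested, 1 of 48 genes of these lists was called. That gene, named after its values were seen, was MAP2K6, a kinase for p38, at 0.289 ± 0.0376 FPKM in PBS and 0.115 ± 0.0356 FPKM in rFGF4 (SD, n = 4). Its groups did not overlap, and its log2 fold change was −1.30 (SE 0.23, edgeR adjusted p = 0.0136 in that fit and 0.0187 with no filter). Of 7 kinases that activate MAP kinases, 6 were tested, with MAP2K1 (a kinase for ERK) at −0.03 (SE 0.06) and MAP2K3 (a kinase for p38) at 0.28 (SE 0.08, edgeR adjusted p = 0.0764). Of 10 kinases activated by MAP kinases, 8 were tested, with RPS6KA4 at 0.18 (SE 0.05) and MAPKAPK2 at 0.06 (SE 0.05). Of 9 other phosphatases that act on MAP kinases, 6 were tested, with PPP2CA and PPP2CB, the catalytic subunits of protein phosphatase 2A, at 0.05 (SE 0.06) and −0.13 (SE 0.07). Of 6 proteins that bind AU-rich elements, which control the decay of short-lived mRNAs, all 6 were tested, with HNRNPD at 0.08 (SE 0.06) and KHSRP at 0.14 (SE 0.05).

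The atypical dual-specificity phosphatases, the class to which DUSP14 belongs by structure, had 7 of 15 genes tested. Of these, 0 were called by edgeR or DESeq2, with 0 at an unadjusted p under 0.05. Over all tested genes edgeR called 10%, and 0 of 7 is near that share. STYXL1 had 0.08 (SE 0.13) and DUSP12 0.09 (SE 0.09). DUSP3, a small phosphatase for ERK and JNK, was split within both groups. It stood at 2.09, 9.66, 10.3 and 1.96 FPKM in PBS and at 9.89, 10.5, 2.25 and 9.13 FPKM in rFGF4. Its log2 fold change was 0.43 with an SE of 0.66 (edgeR adjusted p = 0.743), so a change of the size seen for DUSP5 was not detectable for it.

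The feedback and target genes of ERK were mostly higher as well. Of 16 genes, 12 were tested, 10 were higher, 1 was lower and 1 did not pass, with a list median of 1.02 on the log2 scale. Over all tested genes, 5.49% were called as higher and 4.54% as lower. ETV5 (2.33, SE 0.16), FOSL1 (2.08, SE 0.14) and ETV4 (1.41, SE 0.08), all transcription factors, had the smallest p-values among those that rose. ETV5 averaged 0.787 FPKM in PBS and 3.93 FPKM in rFGF4, so like DUSP4 it passed the filter through its rFGF4 level and had to differ to be among the 12. IER3 rose by 1.32, SPRY1, a Sprouty inhibitor of receptor signalling, by 0.94 and CCND1, cyclin D1, by 0.51. EGR1, an immediate early transcription factor named after its values were seen, fell by 0.63 (SE 0.12, edgeR adjusted p = 0.0141). MYC had −0.46 (SE 0.61). The list was chosen with earlier results of these data known, so its direction is not independent evidence.

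**Figure D5:**
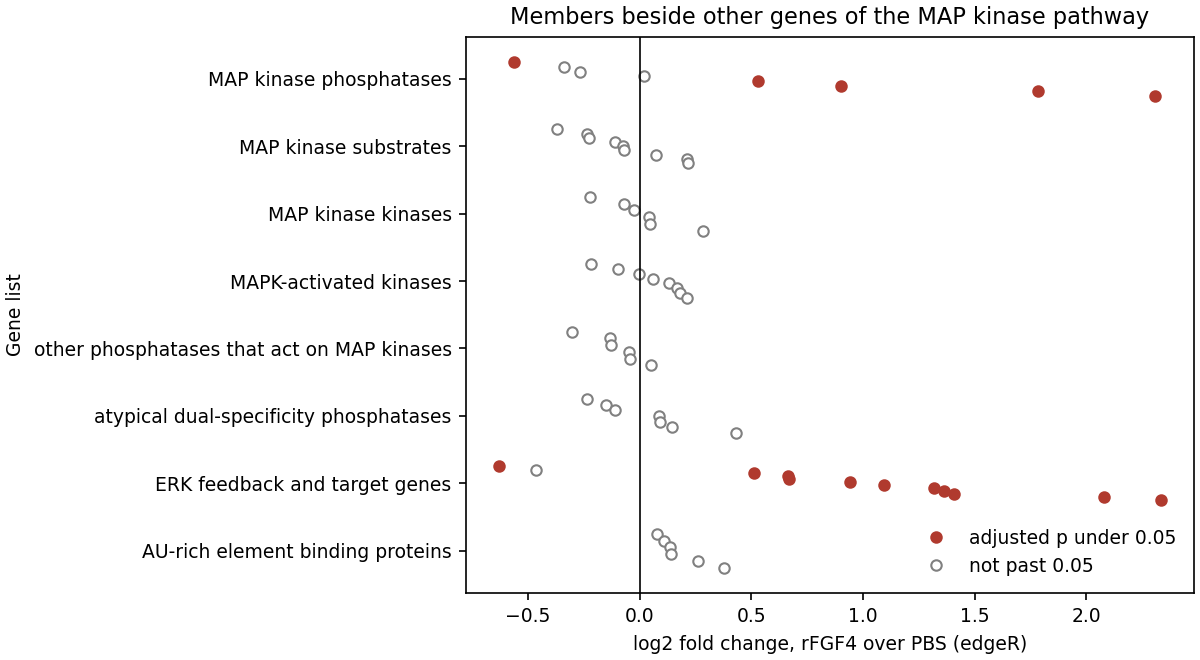
Log2 fold change of rFGF4 over PBS by edgeR for each tested gene of the phosphatase family and of 7 other lists of the MAP kinase pathway; filled points are past the threshold and open points are not. Filled points are in the phosphatase family and the ERK feedback and target list, and the 42 points of the other 6 lists are open, between −0.37 and 0.43.

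Each called member was compared with all other tested genes by its profile over the 8 libraries, as the root mean square difference of mean-centred log2 CPM (counts scaled to a common library total). This measure takes in the change between the groups, so genes with a like fold change are near by construction. The gene most like DUSP6 was ETV5, at 0.26 on the log2 scale, followed by RPSAP52 (0.32) and FOSL1 (0.34). Their log2 fold changes were 2.33, 2.09 and 2.08, against 2.31 for DUSP6. DUSP4 was most like AREG (0.17), an EGF receptor ligand, ARHGAP25 (0.17) and TMEM171 (0.18). ETV5, RPSAP52 and ARHGAP25 averaged under 1 FPKM in PBS and entered the comparison through their rFGF4 level. DUSP5 was most like CD3EAP (0.12), VEGFC (0.12) and VPS9D1-AS1 (0.15). The nearest profiles were closer for the members with smaller changes. The measure is not divided by the size of the change. Over all tested genes the median absolute log2 fold change was 0.15, so members with small changes have more genes close to them. This order is therefore not a trait of the members. RGS14 (0.04), TINAGL1 (0.05) and FURIN (0.06) were nearest to DUSP7, and DDAH2 (0.09), RRAGC (0.09) and CTSO (0.10) to DUSP10.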

How the data were processed

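RNA-seq values for 8 libraries, 4 labelled PBS and 4 labelled rFGF4, came from 1 table. The submitters' processing notes name HISAT2 2.0 and StringTie 1.3.0 without their roles, and the sources used here name no build, annotation or strand setting. The authors deposited FPKM per gene and library, per the file headers, with 0.0001 where the count is 0. They also deposited whole-number counts, per the file headers, which behave as estimated counts: 9781 entries are 4, against 3485 at 3 and 1977 at 5. They were used as deposited, so 1 fragment may be worth several counts. Y-linked genes and the X inactivation transcripts were removed, 521 of 58825 genes.

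The counts were tested with edgeR 4.0.16 in R 4.3.3 (TMM scaling, quasi-likelihood test, two-sided, Benjamini-Hochberg adjustment over 11536 genes with a mean of at least 1 FPKM). The SE was derived from the log2 fold change and its F statistic. Alternatives were DESeq2 1.42.0, limma 3.58.1 on log2(FPKM + 1) and log2(FPKM + 0.1), median-of-ratios scaling, other filters, counts divided by 4, a replicate block and each library left out. Ratios were tested with an exact permutation test in SciPy 1.17.1. The edgeR step was tested on simulated counts of 11536 genes, of which 200 were changed. It recovered 37.3% of the 1.5-fold, 73.1% of the 2-fold and 97% of the 4-fold changes, with 7 false calls. A gene that did not pass may therefore have changed by 1.5-fold or 2-fold, or by more where its libraries varied widely. Every pair of libraries differed by more than counting noise (chi-square per degree of freedom of at least 89.3 on the deposited counts), which does not show that they come from separate animals or cultures.

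Genes were named by a rule: all members, in each other list up to 6 genes past the threshold by smallest p and up to 2 of the highest FPKM not past it, and MAPK3, MAPK8, MAPK14, DUSP9, DUSP3 and FGF4. Added to these were the 3 nearest profiles of each called member. A gene that the rule names is not reported here. The members and lists were chosen with earlier results of these data known. Sequences of the human genes were not used here.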

Additional observations from a re-analysis of the deposited data

Results flagged for a closer look

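Of 32 groups of 4 libraries checked, 5 held a library whose gap to the nearest of the others exceeded Dixon's critical share of the group's range, a limit that chance passes in about 1 group of 20. DUSP5 was at 1.41 FPKM in PBS replicate 1, with the others at 2.13 to 2.22 FPKM. DUSP5 was also at 3.20 FPKM in rFGF4 replicate 2, with the others at 3.75 to 3.82 FPKM. DUSP16 was at 1.65 FPKM in rFGF4 replicate 2, with the others at 1.23 to 1.28 FPKM. DUSP3 was at 2.25 FPKM in rFGF4 replicate 3, with the others at 9.13 to 10.5 FPKM. MAPK14 was at 3.19 FPKM in rFGF4 replicate 1, with the others at 7.63 to 8.53 FPKM.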

How the results depend on the processing

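DUSP4, DUSP5, DUSP6 and DUSP7 were higher and past the threshold under all 17 alternatives run, with DUSP6 between 2.14 and 2.38 on the log2 scale, DUSP4 between 0.93 and 1.88, DUSP5 between 0.65 and 0.97 and DUSP7 between 0.45 and 0.59. The lowest value of DUSP4, DUSP5 and DUSP7 came with limma on log2(FPKM + 1). The number of members called as lower, 1 in the report, was 0 with a filter at a mean of 0.1 FPKM, 0 with filterByExpr and 0 with no filter, and 0 to 1 with a library left out. DUSP10 lost its call in these 9 settings, with adjusted p of 0.0567 to 0.111. DUSP14 had −0.0084 with limma on log2(FPKM + 1), −0.0087 on log2(FPKM + 0.1), and −0.0513 to 0.0626 with a library left out. With 1 added to FPKM, DUSP4 to DUSP5 did not pass (0.29) and DUSP10 to DUSP16 did (−0.36). The number of genes called was 1157, 1828 with DESeq2 and 601 to 1166 with a library left out. It fell more than 1.5 times on leaving out PBS replicate 1 (732), PBS replicate 2 (601), PBS replicate 3 (768), rFGF4 replicate 1 (715) and rFGF4 replicate 3 (675). With the replicate number as a replicate block, 1013 genes and the same number of members, 5, were called. Same-numbered libraries had correlations of −0.02 to 0.21 in their deviations, over 0.1 in 2 of 4 pairs. Libraries with different numbers had −0.14 to 0.07. The same-numbered pairs of replicates 4 (0.21), 1 (0.14) and 2 (0.08) lay above that range, and that of replicates 3 (−0.02) within it. The labels state no pairing, so the main test used none. Whether the numbers pair the libraries was not tested. Low counts limit DUSP2 and DUSP8.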
